A study of Mus musculus with 42 samples.

Results

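Excitation-contraction coupling and calcium handling, the machinery that turns a nerve impulse into a calcium pulse and a twitch, was read from 35 genes in tibialis anterior (TA) muscle of mice. The members were chosen by function, but with earlier results of these data known. Shares of members set beside those of all genes therefore describe this list and are no independent test. By name 36 genes were listed and 35 of them stand in the table of 13809 genes, while Ryr3 is not used here. The table holds RNA sequencing of 42 TA libraries in 11 groups of 3 or 4, sequenced as 2 sets that are named set 1 and set 2 in the labels. All mice were males of 4 months. The paper states a C57BL/6J background only for the Sesn1 transgenic line. Set 1 held wild-type (WT), Sesn1SkM-Tg and Sesn2SkM-Tg mice. The Sesn1SkM-Tg mice express human Sesn1 from the muscle creatine kinase (MCK) promoter. The Sesn2SkM-Tg mice express human Sesn2 from a tetracycline-regulated promoter driven by tTA under the same MCK promoter. Set 2 held WT mice and Sesn1KO mice, a Sesn1 knockout line. In every genotype, muscle from mice with no intervention (basal) was set against muscle from a right hindlimb immobilized for 3 days. In WT mice of set 2, muscle was also taken 3 days after a piece of the sciatic nerve had been cut out (denervated). Sestrins are stress-inducible proteins that restrain mTORC1 signaling.

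In a skeletal muscle fiber the action potential runs down the transverse tubules, where the dihydropyridine receptor senses the voltage and, by direct contact, opens the ryanodine receptor in the facing membrane of the sarcoplasmic reticulum. Calcium bound to calsequestrin and its partners in that store flows into the cytosol, contraction starts, and SERCA pumps return the calcium while parvalbumin buffers it in fast fibers. The TA is a fast muscle, and its fibers are known for the fast isoforms of this machinery (SERCA1, calsequestrin 1, parvalbumin), while slow fibers and the heart use SERCA2, calsequestrin 2 and phospholamban.

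The regions just upstream of 4 members are shown because the results turn on these genes: the slow and fast calsequestrins (Casq2, Casq1), which both fell after denervation and were called in opposite directions after immobilization in set 2, and the fast pump Atp2a1 and buffer Pvalb, which fell in every disuse comparison. Each line gives the 250 bases before the transcription start, 5′ to 3′ on the gene's strand, from RefSeq on build GRCm38.p6, at chr3:102086165-102086414 (Casq2, forward strand), chr1:172219896-172220145 (Casq1, reverse strand), chr7:126463074-126463323 (Atp2a1, reverse strand) and chr15:78206401-78206650 (Pvalb, reverse strand). The capitals in Casq2 and Pvalb mark the MEF2 consensus, and those in Casq1 and Atp2a1 mark CAGCTG, an E-box that is its own reverse complement.
Casq2: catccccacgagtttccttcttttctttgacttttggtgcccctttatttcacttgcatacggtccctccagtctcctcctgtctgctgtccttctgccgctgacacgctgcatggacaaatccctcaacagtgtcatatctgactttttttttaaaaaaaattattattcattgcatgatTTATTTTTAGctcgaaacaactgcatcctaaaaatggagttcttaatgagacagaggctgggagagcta
Casq1: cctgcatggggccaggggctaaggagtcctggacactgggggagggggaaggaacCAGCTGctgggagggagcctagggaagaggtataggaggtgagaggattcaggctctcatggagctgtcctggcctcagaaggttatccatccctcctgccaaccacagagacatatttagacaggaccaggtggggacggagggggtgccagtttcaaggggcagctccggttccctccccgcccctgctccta
Atp2a1: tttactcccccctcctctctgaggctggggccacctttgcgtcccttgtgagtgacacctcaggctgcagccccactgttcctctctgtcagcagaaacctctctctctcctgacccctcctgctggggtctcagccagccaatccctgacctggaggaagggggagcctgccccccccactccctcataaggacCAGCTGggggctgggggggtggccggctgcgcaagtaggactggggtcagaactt
Pvalb: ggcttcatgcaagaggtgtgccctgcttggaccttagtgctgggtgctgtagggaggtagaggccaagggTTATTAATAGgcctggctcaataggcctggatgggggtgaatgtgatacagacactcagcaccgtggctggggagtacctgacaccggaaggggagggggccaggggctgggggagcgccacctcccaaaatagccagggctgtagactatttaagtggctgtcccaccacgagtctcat
Both strands were searched, and the 2 motifs did not overlap in these windows. Promoters were given for 21 of the 35 members, 26 windows in all. The MEF2 consensus stood in the windows of 2 members, Casq2 (69 bases before the start) and Pvalb (180 bases before), against 2.92% of all 32851 promoters of the same length. CAGCTG stood in those of 7 members (Cacna1s, Casq1, Fkbp1a, Jph2, Orai1, Hrc and Atp2a1) against 13.0% of all. The E-box lay 195 bases before the RefSeq start of Casq1 and 55 before that of Atp2a1. Gene positions given below come from GENCODE, whose starts of Casq1 and Atp2a1 differ from those of RefSeq. A match is a description of the letters and not a binding site.

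The values are the authors' normalized counts, not logged and not divided by transcript length, so levels of different genes are compared only after division by exon length in kb. In each group the values are listed in the order of the replicate numbers. A gene was called where limma's moderated test on log2(value + 1), run on all genes of a set together, gave a Benjamini-Hochberg adjusted p below 0.05 with a log2 fold change of 0.25 or more in either direction. Beside fits with 1 library left out, 9 alternatives changed the pseudocount, filter, scaling, prior, fold threshold, replicate block or the groups fitted together. Fold changes are on that log2(value + 1) scale, which understates the change of genes near 0, and their errors are SE. The labels do not say that replicates came from separate animals, so p-values measure the spread between these libraries. Sequencing depth cannot be read from these values, so no counting error is given. Sesn1 in Sesn1KO muscle was 8.41 to 10.05 basal, against 22.5 to 29.7 in WT, lower but not absent. In Sesn1SkM-Tg muscle Sesn1 was 41.6 to 77.6 basal against 14.98 to 22.1 in WT of set 1, and Sesn2 in Sesn2SkM-Tg muscle was 6.54 to 13.03 against 2.18 to 3.39. Both transgenes are human and reads were mapped to the mouse transcriptome, so these values do not measure the transgene level. In immobilized muscle the Sesn1 ranges of Sesn1KO (19.4 to 37.3) and WT (30.7 to 53.1) overlapped.

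The 6 fiber markers (Ckm, Acta1, Myh4, Mb, Des and Ttn) showed that the libraries are muscle. Their summed level was 94141 to 107846 in basal WT muscle of set 2, 38794 to 52356 after denervation and 83923 to 90653 after immobilization, and in set 1 it was 82442 to 115004 in basal and 54997 to 69887 in immobilized WT muscle. In such bulk RNA, fewer fibers and less RNA per fiber cannot be told apart. The 6 macrophage and leukocyte markers summed to 27.7 to 129 in basal, 40.3 to 108 in denervated and 94.5 to 189.9 in immobilized WT muscle of set 2, and to 34.6 to 51.7 and 162 to 341 in basal and immobilized WT muscle of set 1. Of these 6, 6 were called higher after immobilization in WT, 6 in Sesn1SkM-Tg (sum 22.5 to 45.97 basal, 130.1 to 372 immobilized) and 3 in Sesn2SkM-Tg muscle of set 1, and 2 in WT muscle of set 2. In the same order of groups, 3, 4, 0 and 0 of 4 fibroblast, 3, 4, 3 and 0 of 4 Schwann cell and 2, 3, 3 and 0 of 4 endothelial markers were called higher. The fibroblast sum was 324 to 500.3 in basal and 815 to 2280.0 in immobilized Sesn1SkM-Tg muscle, and the Schwann cell sum 8.16 to 19.1 and 23.8 to 52.5 in WT muscle of set 1. The part of these cells in the results was not tested. A pair of libraries stood apart: in Sesn2SkM-Tg basal replicate 2 and WT basal replicate 4 of set 1, genes with exons over 6 kb lay lower against those under 1.5 kb by -0.96 and -0.79 (median log2 deviation from the mean of the group's other libraries), while the other libraries lay between -0.336 and 0.444. Results that rest on these libraries are given with and without them.

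Per kb of exon, the members' mean levels in basal WT muscle of set 2 spanned from the fast pump Atp2a1 (8379 ± 739.8, SD, n = 4) and Pvalb (7411 ± 992), which stood next to each other, down to Rrad (0.397 ± 0.184). Casq1 followed at 1212 ± 135 per kb. The release channel Ryr1 (162 ± 13.1) and the voltage sensor Cacna1s (158 ± 12.5) did not differ beyond their spread per kb. The slow-fiber partners stood near the bottom of the order, Casq2 at 15.5 ± 5.65, Atp2a2 at 4.28 ± 0.559 and Pln at 0.589 ± 0.129 per kb.

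Denervation for 3 days left most of the module lower. Of the 35 members, 23 fell and 6 rose, against 27.7% and 27.8% of all genes called lower and higher, and the median member's log2 fold change was -0.59 against -0.027 over all genes. The store proteins Casq1, Hrc and Srl, the pump Atp2a1, the junctophilins and triadin fell by over 1 on the log2 scale, and Rrad, Pln, Cacng1 and Atp2a2 rose by over 1. The library sums were lower after denervation (722430 to 811541, against 1042064 to 1099736 in basal muscle), and with all libraries rescaled to the same total the median over all genes moved to 0.35 and the members split into 17 lower and 10 higher, against 13.8% and 46.6% of all genes.

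Immobilization for 3 days moved fewer members, again mostly down. In WT muscle of set 2, 15 members fell and 6 rose (17.7% and 16.2% of all genes; members' median -0.17 against -0.021). In Sesn1KO muscle 17 fell and 7 rose (19.9% and 17.2%; -0.32 against -0.027). In set 1, 15 fell and 5 rose in WT muscle (14.5% and 14.9%; -0.44 against 0.0028), 18 fell and 4 rose in Sesn1SkM-Tg muscle (16.5% and 18.2%; -0.57 against -0.0088), and 18 fell and 3 rose in Sesn2SkM-Tg muscle (15.7% and 15% of all genes; -0.69 against 0.0027). Each of these comparisons has basal libraries of its own. Rescaling to the same total moved the median over all genes to 0.28, 0.25 and 0.26 in the 3 comparisons of set 1, where the members then split into 13 lower and 7 higher in WT (5.41% and 29.8% of all genes), 13 and 7 in Sesn1SkM-Tg (6.38% and 30.2%), and 15 and 6 in Sesn2SkM-Tg muscle (7% and 28.6%). Across the 5 comparisons, 13 members were called in each (8.95% of all genes), 11 of them lower (5.69%) and 2 higher (Rrad and Atp2a2; 3.13%), and 7 were called in none (32%). The heat map of fold changes shows these patterns gene by gene.

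**Figure D1:**
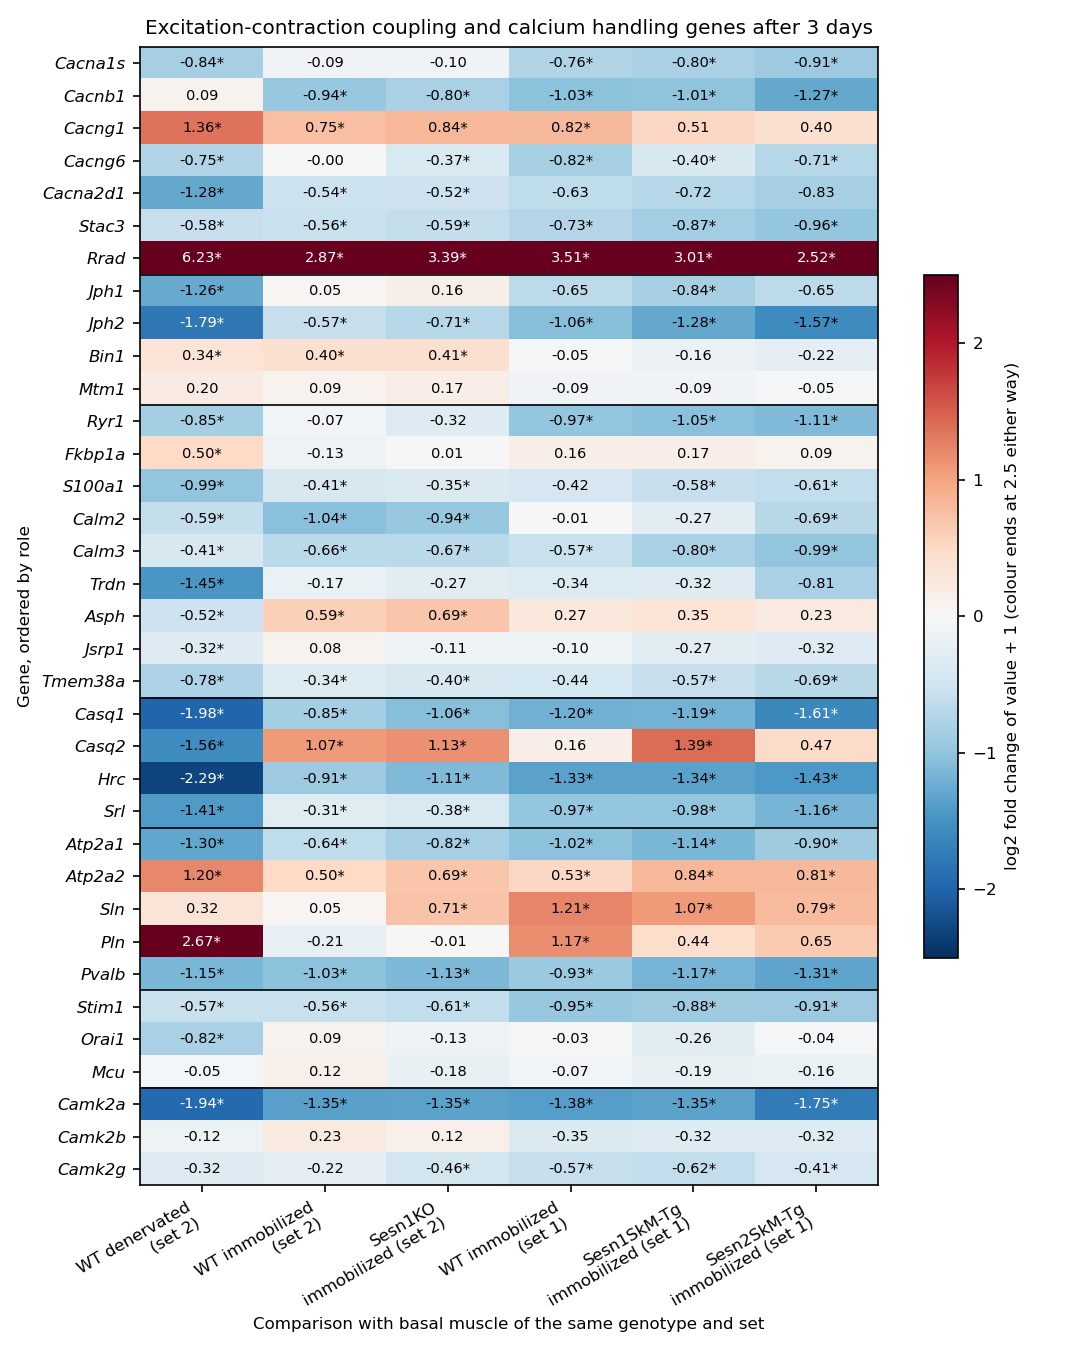
Log2 fold change of each of the 35 members (rows, grouped by role) in denervated against basal WT muscle and in the 5 immobilized against basal comparisons (columns), with an asterisk where the gene was called. Casq1, Hrc, Atp2a1, Pvalb and Camk2a were lower in all 6 columns, Rrad and Atp2a2 higher in all 6, and Pln and Casq2 differed between denervation and immobilization.

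The voltage sensor subunits were mostly lower after denervation, where 4 of the 7 genes at the tubule membrane fell and 2 rose (Cacng1 and Rrad). Of all genes, 27.7% were called lower and 27.8% higher. Cacna1s (chr1:136052750-136119822) encodes the pore and voltage sensor of the dihydropyridine receptor. In set 2, Cacna1s was 1129, 1023, 1056 and 931 in basal, 513, 599, 637 and 570.2 in denervated and 1114, 804, 933 and 1063 in immobilized WT muscle. All 4 denervated libraries lay below every basal one, while basal and immobilized values overlapped. Cacna1s fell after denervation (log2 fold change -0.84 ± 0.17, adjusted p = 0.00024) and was not called after immobilization in set 2 (-0.088 ± 0.17, adjusted p = 0.726). Cacna1s in Sesn1KO muscle was 1145, 1119, 987 and 1124 basal and 1297, 642, 1386 and 941 immobilized. Immobilized Sesn1KO libraries lay on both sides of the basal ones (-0.10 ± 0.17, adjusted p = 0.685). Basal Cacna1s in set 1 was 1114, 1214, 983 and 1459 in WT, 1233, 1037, 891 and 1338 in Sesn1SkM-Tg and 1259, 1287, 1336 and 1223 in Sesn2SkM-Tg muscle. Immobilized, Cacna1s was 846, 724 and 549.8 in WT, 755, 606 and 563 in Sesn1SkM-Tg and 746, 621, 656 and 695 in Sesn2SkM-Tg muscle. In set 1 every immobilized library lay below every basal library of its genotype. Cacna1s fell in WT (-0.76 ± 0.17, adjusted p = 0.0024), Sesn1SkM-Tg (-0.80 ± 0.17) and Sesn2SkM-Tg muscle (-0.91 ± 0.16).

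Cacnb1 (chr11:98001508-98023034), the beta subunit that carries the sensor to the membrane, separated immobilization from denervation. In set 2, Cacnb1 was 151, 131, 157 and 140.2 in basal, 169, 133, 155 and 158 in denervated and 75.9, 71.2, 69.1 and 83.1 in immobilized WT muscle. Denervated libraries lay within or near the basal range, and immobilized ones were all below it. Its log2 fold change was 0.086 ± 0.14, adjusted p = 0.614, after denervation, and it fell after immobilization (-0.94 ± 0.14, adjusted p = 2e-05). Cacnb1 in Sesn1KO muscle was 191, 155, 122 and 151 basal and 87.3, 68.6, 117 and 82.6 immobilized. Basal Cacnb1 in set 1 was 133, 139.9, 136 and 196 in WT, 148, 152, 159 and 181 in Sesn1SkM-Tg and 193, 248, 186 and 179.6 in Sesn2SkM-Tg muscle. Immobilized, Cacnb1 was 79.5, 75.5 and 63.3 in WT, 83.3, 77.2 and 76.6 in Sesn1SkM-Tg and 99.9, 72.96, 95.3 and 66.3 in Sesn2SkM-Tg muscle. In all 4 genotypes the immobilized libraries lay below the basal ones. Cacnb1 fell, with log2 fold changes of -0.80 in Sesn1KO, -1.03 in WT of set 1, -1.01 in Sesn1SkM-Tg and -1.27 in Sesn2SkM-Tg muscle on the log2 scale. With libraries rescaled to the same total, Cacnb1 was called higher after denervation (log2 fold change 0.55, adjusted p = 0.000629).

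Cacng1 (chr11:107703218-107716522) encodes the gamma subunit of the receptor. In set 2, Cacng1 was 169, 151, 174 and 199.9 in basal, 400.1, 443, 441 and 507 in denervated and 303, 292, 289 and 277 in immobilized WT muscle. It rose in both, with no overlap with basal muscle and the denervated libraries highest (1.36 ± 0.10 and 0.75 ± 0.10). Cacng1 in Sesn1KO muscle was 164, 168, 165 and 143 basal and 228, 302, 310.1 and 312 immobilized. Basal Cacng1 in set 1 was 259, 195, 144 and 167 in WT, 191, 209, 261 and 202 in Sesn1SkM-Tg and 289.7, 274, 277 and 199 in Sesn2SkM-Tg muscle. Immobilized, Cacng1 was 307, 432 and 272 in WT, 327, 284 and 305 in Sesn1SkM-Tg and 401, 209, 357 and 442 in Sesn2SkM-Tg muscle. Cacng1 rose in Sesn1KO (0.84 ± 0.10, adjusted p = 2e-06) and WT muscle of set 1 (0.82 ± 0.23, adjusted p = 0.0103), the latter not without immobilized replicate 2 (adjusted p = 0.072). In Sesn1SkM-Tg (0.51 ± 0.23, adjusted p = 0.0869) and Sesn2SkM-Tg muscle (0.40 ± 0.21, adjusted p = 0.158) it was not called, and with libraries rescaled to the same total it was called in both.

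Cacng6 (chr7:3424195-3435667) encodes another gamma subunit. In set 2, Cacng6 was 116, 113, 114 and 143 in basal, 67.3, 60.2, 79.8 and 80.9 in denervated and 126, 131, 116 and 111 in immobilized WT muscle. Denervated values lay below all others, and immobilized values overlapped the basal ones. Cacng6 fell after denervation (-0.75 ± 0.13, adjusted p = 4.6e-05), and after immobilization its fold change was -0.0037 ± 0.13, adjusted p = 0.986. Cacng6 in Sesn1KO muscle was 146, 132, 125 and 119.7 basal and 91.1, 77.4, 126 and 115 immobilized. Basal Cacng6 in set 1 was 156, 134, 126 and 165 in WT, 114, 106, 117 and 116 in Sesn1SkM-Tg and 156, 154, 129 and 128 in Sesn2SkM-Tg muscle. Immobilized, Cacng6 was 74.9, 94.4 and 75.7 in WT, 87.03, 72.5 and 99.6 in Sesn1SkM-Tg and 89.7, 71.5, 89.6 and 94.9 in Sesn2SkM-Tg muscle. In set 1 immobilized libraries lay below the basal ones of their genotype and Cacng6 fell (-0.82 ± 0.14 in WT, -0.40 ± 0.14 in Sesn1SkM-Tg, -0.71 ± 0.13 in Sesn2SkM-Tg). It also fell in Sesn1KO muscle (-0.37 ± 0.13, adjusted p = 0.0286), a call lost with any of 4 of its 8 libraries left out singly (adjusted p up to 0.132). The Sesn1SkM-Tg call was lost in 4 of 7 such fits (up to 0.173) and in 3 of 9 alternatives (up to 0.602), the Sesn1KO call in 2 of 9 (up to 0.0773).

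Cacna2d1 (chr5:15934691-16374511), the alpha2-delta subunit, fell in set 2 after both treatments. In set 2, Cacna2d1 was 476, 471, 531 and 433 in basal, 157, 171, 237 and 231 in denervated and 364, 298, 314 and 337 in immobilized WT muscle. Cacna2d1 in Sesn1KO muscle was 502, 507, 378 and 514 basal and 331, 261, 409 and 331 immobilized. The 3 WT groups did not overlap, denervated lowest. Its fold changes were -1.28 ± 0.14 after denervation, -0.54 ± 0.14 after immobilization and -0.52 ± 0.14 in immobilized Sesn1KO muscle, and both immobilization calls were lost with both sets in 1 fit (adjusted p = 0.171 and 0.182). Basal Cacna2d1 in set 1 was 626, 619, 551 and 179 in WT, 576, 539, 377 and 294 in Sesn1SkM-Tg and 397, 171, 463 and 504 in Sesn2SkM-Tg muscle. Immobilized, Cacna2d1 was 422, 221 and 247 in WT, 340.4, 281 and 185 in Sesn1SkM-Tg and 247, 151, 201 and 210.0 in Sesn2SkM-Tg muscle. The lowest basal values of WT and Sesn2SkM-Tg muscle are those of the libraries low in long transcripts. With all libraries Cacna2d1 was not called in set 1 (-0.63 ± 0.40, adjusted p = 0.241, in WT, -0.72 ± 0.40, adjusted p = 0.166, in Sesn1SkM-Tg, and -0.83 ± 0.37, adjusted p = 0.0938, in Sesn2SkM-Tg muscle). Without those libraries it fell in WT (-1.07, adjusted p = 0.00467) and Sesn2SkM-Tg muscle (-1.18, adjusted p = 0.00105).

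Stac3 (chr10:127501686-127508823) encodes the adaptor that the voltage sensor needs to open the release channel, and it fell in every disuse comparison. In set 2, Stac3 was 196, 185, 186 and 291 in basal, 134, 129, 141 and 161 in denervated and 131, 153, 133 and 153 in immobilized WT muscle. Stac3 in Sesn1KO muscle was 251, 204, 160.0 and 203 basal and 120.4, 118, 188 and 118 immobilized. Denervated and immobilized WT libraries all lay below the basal ones, whereas immobilized Sesn1KO replicate 3 lay above the lowest basal library. The fold changes of Stac3 were -0.58 ± 0.16, -0.56 ± 0.16 and -0.59 ± 0.16 in these 3 comparisons. Basal Stac3 in set 1 was 218, 201, 193 and 211 in WT, 216, 218, 262 and 210.0 in Sesn1SkM-Tg and 227, 263, 201 and 202 in Sesn2SkM-Tg muscle. Immobilized, Stac3 was 127, 140.1 and 107 in WT, 159, 112 and 106 in Sesn1SkM-Tg and 118, 92.97, 123 and 122 in Sesn2SkM-Tg muscle. No immobilized library of set 1 reached the basal range, and Stac3 fell, with log2 fold changes of -0.73 in WT, -0.87 in Sesn1SkM-Tg and -0.96 in Sesn2SkM-Tg muscle. With libraries rescaled to the same total, the denervation call was lost (log2 fold change -0.11, adjusted p = 0.517).

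Rrad (chr8:104628070-104631327), a small GTPase that binds calcium channel beta subunits and holds the channel current down, moved most of all members. In set 2, Rrad was 0.252, 0.680, 0.958 and 0.616 in basal, 136, 118, 99.7 and 125 in denervated and 6.03, 16.3, 7.88 and 16.4 in immobilized WT muscle. It was below 1 in every basal WT library of set 2, between 6.03 to 16.4 after immobilization and at 99.7 to 136 after denervation, with no overlap. Rrad rose after denervation (6.23 ± 0.53, adjusted p = 3.15e-09) and after immobilization (2.87 ± 0.53, adjusted p = 0.000265). Rrad in Sesn1KO muscle was 0.847, 1.64, 1.28 and 2.22 basal and 83.6, 56.5, 13.9 and 4.93 immobilized. Basal Rrad in set 1 was 1.30, 0.329, 1.87 and 2.70 in WT, 1.66, 1.32, 3.34 and 0.676 in Sesn1SkM-Tg and 0.463, 2.60, 4.21 and 53.4 in Sesn2SkM-Tg muscle. Immobilized, Rrad was 54, 9.13 and 35.5 in WT, 11.3, 14.9 and 45.2 in Sesn1SkM-Tg and 10.3, 252, 14.6 and 35.4 in Sesn2SkM-Tg muscle. The immobilized values spread widely: Sesn2SkM-Tg replicate 2 stood at 252 and basal Sesn2SkM-Tg replicate 4 above 3 of the 4 immobilized libraries of its genotype. Rrad rose in Sesn1KO (3.39 ± 0.53, adjusted p = 3.45e-05), WT of set 1 (3.51 ± 0.97, adjusted p = 0.0103), Sesn1SkM-Tg (3.01 ± 0.97, adjusted p = 0.0206) and Sesn2SkM-Tg muscle (2.52 ± 0.90, adjusted p = 0.0372). The set 1 calls rest on single libraries. The WT call was lost without immobilized replicate 3 (adjusted p = 0.0524), the Sesn1SkM-Tg call without basal replicate 4 or immobilized replicate 3 (up to 0.121), the Sesn2SkM-Tg call in 5 of 8 such fits (up to 0.181), with only the compared groups fitted (0.111) and without both libraries low in long transcripts (2.26, adjusted p = 0.0822).

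**Figure D2:**
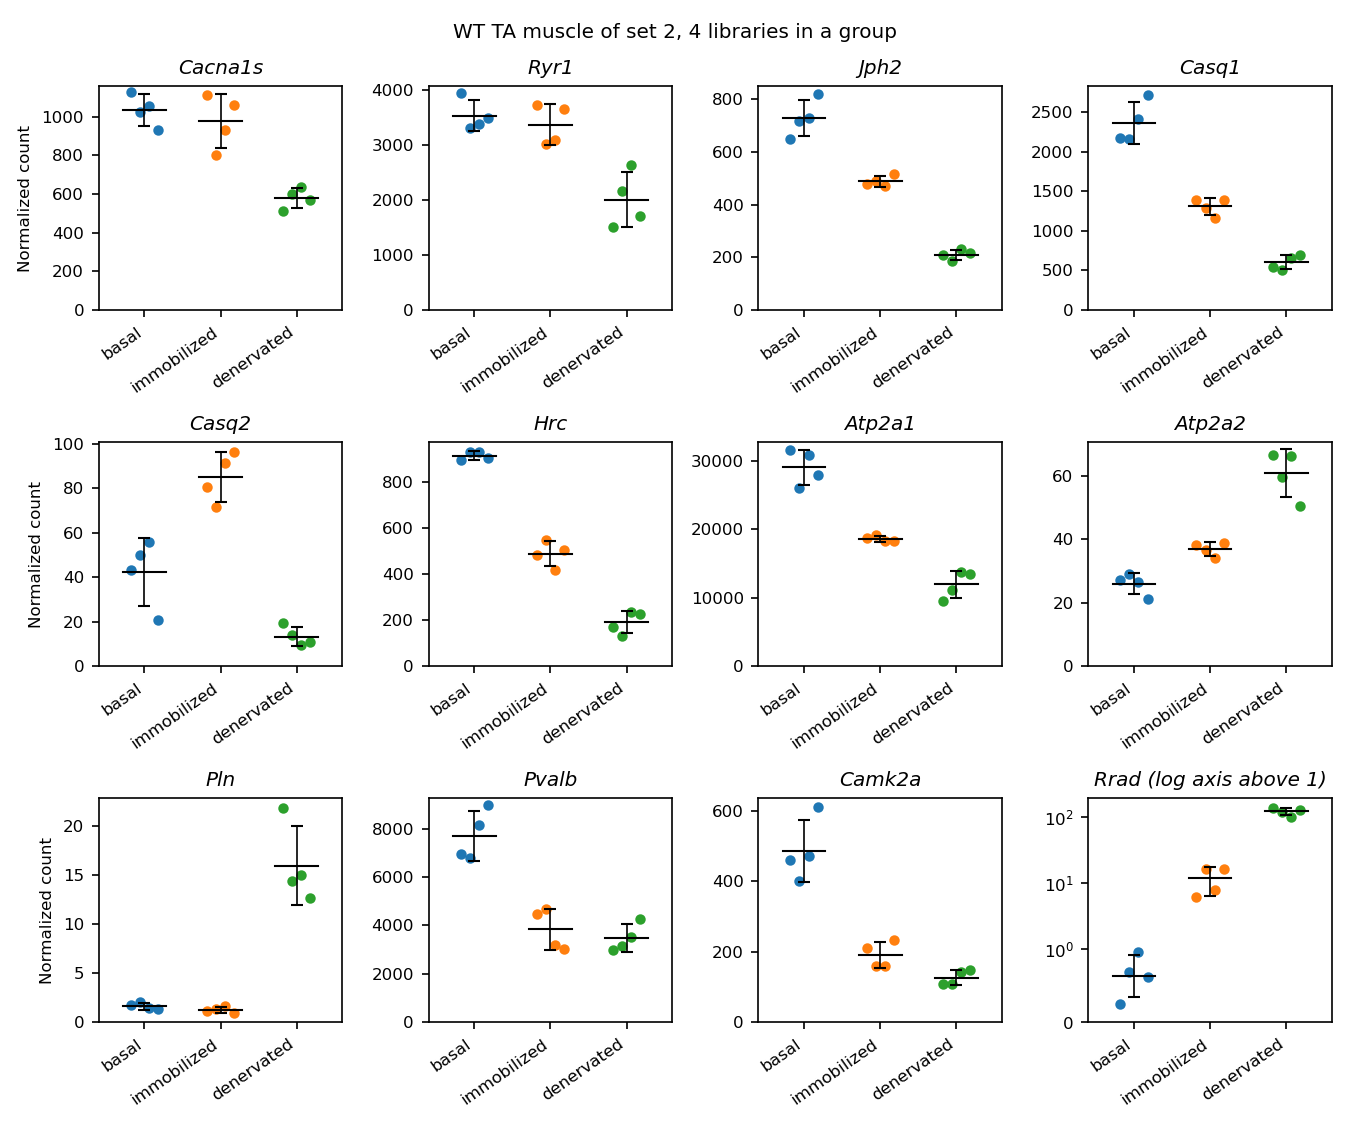
Normalized counts of 12 members in each basal, immobilized and denervated WT library of set 2 (points; lines, group means; bars, SD; n = 4; log axis above 1 for Rrad). Casq2 was high after immobilization and low after denervation, Pln was high only in the denervated libraries of these 3 groups, and Rrad was highest after denervation.

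The junctophilins, which tie the tubule to the store membrane, fell most among the 4 genes of tubule and junction. After denervation 2 of the 4 fell and 1 rose (27.7% and 27.8% of all genes). After immobilization of WT muscle in set 2, 1 fell and 1 rose (17.7% and 16.2% of all genes). Jph1 (chr1:16964560-17097889) is the junctophilin known from skeletal muscle, although its level per kb was below that of Jph2 here. In set 2, Jph1 was 384, 364, 355 and 448 in basal, 147, 155, 165 and 178 in denervated and 344, 430.3, 403 and 427 in immobilized WT muscle. Denervated values were all under the lowest of the other groups, and immobilized values overlapped the basal ones. Jph1 fell after denervation (-1.26 ± 0.12, adjusted p = 1.42e-08) and its fold change was 0.05 ± 0.12, adjusted p = 0.782, after immobilization. Jph1 in Sesn1KO muscle was 456, 380.4, 326 and 371 basal and 445, 377, 522 and 369 immobilized. Basal Jph1 in set 1 was 526, 479, 423 and 345 in WT, 528, 494, 492 and 414 in Sesn1SkM-Tg and 351, 179, 435 and 423 in Sesn2SkM-Tg muscle. Immobilized, Jph1 was 342, 269.9 and 233 in WT, 393, 263 and 188 in Sesn1SkM-Tg and 263, 148, 233 and 209.7 in Sesn2SkM-Tg muscle. In Sesn1KO muscle basal and immobilized values of Jph1 overlapped (0.16 ± 0.12, adjusted p = 0.322). It fell in Sesn1SkM-Tg muscle (-0.84 ± 0.27, adjusted p = 0.0211), a call lost in 3 of 7 fits with 1 library left out (up to 0.165) and in 2 of 9 alternatives (up to 0.143). In WT of set 1 (-0.65 ± 0.27, adjusted p = 0.0735) and Sesn2SkM-Tg muscle (-0.65 ± 0.25, adjusted p = 0.0546) it was not called with all libraries, and it fell in both without the libraries low in long transcripts (-0.77, adjusted p = 0.0123 and -0.94, adjusted p = 0.00166).

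Jph2 (chr2:163336242-163397993), the junctophilin shared with the heart, fell in every disuse comparison. In set 2, Jph2 was 649, 718, 728 and 818 in basal, 207, 186, 229.8 and 215 in denervated and 477, 489, 469 and 515 in immobilized WT muscle. Jph2 in Sesn1KO muscle was 854, 742, 602 and 728 basal and 485, 361, 604 and 364 immobilized. The WT groups did not overlap, with denervated libraries lowest, and in Sesn1KO muscle immobilized replicate 3 alone lay just inside the basal range. Jph2 fell, with log2 fold changes of -1.79 ± 0.13 after denervation, -0.57 ± 0.13 after immobilization and -0.71 ± 0.13 in Sesn1KO muscle. Basal Jph2 in set 1 was 750.1, 698, 636 and 717 in WT, 887, 776, 861 and 878 in Sesn1SkM-Tg and 679, 776, 678 and 718 in Sesn2SkM-Tg muscle. Immobilized, Jph2 was 357, 328 and 318 in WT, 534, 292 and 271 in Sesn1SkM-Tg and 269, 214, 229 and 246 in Sesn2SkM-Tg muscle. No values of immobilized and basal muscle overlapped in set 1, where the log2 fold change of Jph2 was -1.06 in WT, -1.28 in Sesn1SkM-Tg and -1.57 in Sesn2SkM-Tg muscle. Of the summed junctophilin level per kb, Jph2 held 66.5 to 70.7 % in basal, 57.2 to 61.9 % in immobilized and 58.5 to 62.4 % in denervated WT muscle of set 2.

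Bin1, whose product bends the membrane into tubules, rose in set 2. Its mean was 549 ± 46.9 (SD, n = 4) in basal, 693 ± 57.2 in denervated and 724 ± 55.3 in immobilized WT muscle (0.34 ± 0.10, adjusted p = 0.00644, and 0.40 ± 0.10, adjusted p = 0.00338), and it rose in Sesn1KO muscle (0.41 ± 0.10, adjusted p = 0.00249). In set 1 its fold changes of -0.048, -0.16 and -0.22 were not called. Mtm1, a lipid phosphatase that tubule upkeep needs, was called in none of the 17 comparisons. Its means were 15.2 ± 0.444, 17.7 ± 2.98 and 16.3 ± 1.49 in basal, denervated and immobilized WT muscle of set 2, and with libraries rescaled to the same total it was called higher after denervation (log2 fold change 0.64, adjusted p = 0.000238).

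The release channel and 8 partners were lower after denervation in 8 of 9 genes, with Fkbp1a alone higher (27.7% and 27.8% of all genes). Among these, the Calm3 and Jsrp1 calls were each lost in 7 of 8 fits with 1 library left out. After immobilization of WT muscle 4 fell and 1 rose in set 2 (17.7% and 16.2% of all genes). In set 1, 2 fell (14.5% of all genes). Ryr1 (chr7:29003344-29125179) encodes the ryanodine receptor itself. In set 2, Ryr1 was 3945, 3312, 3380.4 and 3481 in basal, 1509, 2161, 2624 and 1716 in denervated and 3717, 3019.9, 3088 and 3645 in immobilized WT muscle. Every denervated library lay under every basal one, and basal and immobilized values overlapped. Ryr1 fell after denervation (-0.85 ± 0.18, adjusted p = 0.0005) and was not called after immobilization in set 2 (-0.071 ± 0.18, adjusted p = 0.803). Ryr1 in Sesn1KO muscle was 4007, 3777, 2959 and 3556 basal and 2676, 1900.2, 3576 and 3622 immobilized. Immobilized Sesn1KO replicates 1 and 2 lay below the basal range and replicates 3 and 4 within it (-0.32 ± 0.18, adjusted p = 0.183). Basal Ryr1 in set 1 was 3719.6, 4630.3, 3594 and 4263 in WT, 4279, 3653, 2721 and 4199 in Sesn1SkM-Tg and 4006, 3363, 5207 and 4804 in Sesn2SkM-Tg muscle. Immobilized, Ryr1 was 2976, 1780.3 and 1647 in WT, 2166, 1824 and 1395 in Sesn1SkM-Tg and 2222, 1887, 1713 and 2150.3 in Sesn2SkM-Tg muscle. All immobilized libraries of set 1 lay below the basal ones of their genotype, and Ryr1 fell (-0.97 ± 0.22, adjusted p = 0.00306, in WT, -1.05 ± 0.22 in Sesn1SkM-Tg and -1.11 ± 0.21 in Sesn2SkM-Tg). With quantile normalization the calls after denervation (log2 fold change -0.11, adjusted p = 0.562) and in WT of set 1 (log2 fold change -0.49, adjusted p = 0.096) were lost.

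Calm2 (chr17:87433412-87446935) and Calm3 (chr7:16915379-16924114) encode the same protein, calmodulin, which binds the release channel and CaM kinases. How any reads shared by these genes were divided between them was not tested. In set 2, Calm2 was 145, 138, 136 and 161 in basal, 87.3, 79.7, 101 and 119.9 in denervated and 74.8, 58.7, 60.6 and 88.6 in immobilized WT muscle. Immobilized values were lowest on average, and neither treated group reached the basal range. Calm2 fell after denervation (-0.59 ± 0.12) and after immobilization (-1.04 ± 0.12, adjusted p = 1.92e-06). Calm2 in Sesn1KO muscle was 142, 139, 140.0 and 125 basal and 64.9, 73.3, 75.8 and 68.9 immobilized. Basal Calm2 in set 1 was 120.1, 111, 102 and 93.7 in WT, 133, 152, 158 and 111 in Sesn1SkM-Tg and 107, 122, 102 and 95.4 in Sesn2SkM-Tg muscle. Immobilized, Calm2 was 94.6, 128 and 96.8 in WT, 99.8, 141 and 103 in Sesn1SkM-Tg and 71.6, 54.5, 78.6 and 59.5 in Sesn2SkM-Tg muscle. In Sesn1KO muscle all immobilized values lay below the basal ones (-0.94 ± 0.12), but in WT (-0.012 ± 0.16, adjusted p = 0.965) and Sesn1SkM-Tg muscle of set 1 (-0.27 ± 0.16, adjusted p = 0.197) basal and immobilized values overlapped and Calm2 was not called. It fell in Sesn2SkM-Tg muscle (-0.69 ± 0.15, adjusted p = 0.00157) with no overlap, a call lost with libraries rescaled to the same total (log2 fold change -0.38, adjusted p = 0.0663); the same rescaling ended the denervation call (log2 fold change -0.12, adjusted p = 0.39).

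In set 2, Calm3 was 356, 350.4, 335 and 379 in basal, 247, 262, 265 and 296 in denervated and 223, 213, 211 and 249.7 in immobilized WT muscle. Calm3 in Sesn1KO muscle was 409.7, 335, 206 and 333 basal and 155, 187, 289 and 176 immobilized. Calm3 values of treated WT muscle lay under the basal range, immobilized ones lowest on average. It fell after immobilization in set 2 (-0.66 ± 0.17 in WT, -0.67 ± 0.17 in Sesn1KO). The denervation call (-0.41 ± 0.17, adjusted p = 0.0448) was lost in 7 of 8 fits with 1 library left out (adjusted p up to 0.0988), and with libraries rescaled to the same total the sign of Calm3 turned (log2 fold change 0.058, adjusted p = 0.77). Basal Calm3 in set 1 was 368, 340.5, 280.3 and 325 in WT, 391, 368, 368 and 399 in Sesn1SkM-Tg and 391, 378, 380.0 and 363 in Sesn2SkM-Tg muscle. Immobilized, Calm3 was 257, 211 and 198 in WT, 241, 229 and 188 in Sesn1SkM-Tg and 244, 147, 207 and 174 in Sesn2SkM-Tg muscle. No immobilized library of set 1 reached the basal range, and Calm3 fell, in WT, Sesn1SkM-Tg and Sesn2SkM-Tg muscle, with log2 fold changes of -0.57, -0.80 and -0.99. The WT call of set 1 was lost without immobilized replicate 3 (adjusted p = 0.0549), with equal totals (log2 fold change -0.23, adjusted p = 0.186) and with quantile normalization (log2 fold change -0.35, adjusted p = 0.0582).

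Trdn (chr10:33080554-33476709), triadin, links the release channel to calsequestrin. In set 2, Trdn was 963, 939, 957 and 909.6 in basal, 254, 285, 458 and 427 in denervated and 949, 873, 788 and 749 in immobilized WT muscle. Denervated values were at most 458, far below the other groups, while immobilized values lay near the basal ones. Trdn fell after denervation (-1.45 ± 0.16, adjusted p = 1.82e-07) and was not called after immobilization (-0.17 ± 0.16, adjusted p = 0.448, in WT and -0.27 ± 0.16, adjusted p = 0.209, in Sesn1KO). Trdn in Sesn1KO muscle was 964, 1068, 766 and 1003 basal and 800.0, 617, 985 and 775 immobilized. Basal Trdn in set 1 was 1347, 1344, 1098 and 314 in WT, 931, 1137, 704 and 444 in Sesn1SkM-Tg and 872, 441, 1027 and 918 in Sesn2SkM-Tg muscle. Immobilized, Trdn was 1037, 539.7 and 623 in WT, 856, 641 and 405 in Sesn1SkM-Tg and 561, 290.1, 473 and 498 in Sesn2SkM-Tg muscle. In set 1 the lowest basal libraries of WT and Sesn2SkM-Tg muscle are again those low in long transcripts, and Trdn was not called (-0.34 ± 0.43, adjusted p = 0.59, in WT, -0.32 ± 0.43, adjusted p = 0.587, in Sesn1SkM-Tg, and -0.81 ± 0.40, adjusted p = 0.132, in Sesn2SkM-Tg). Without both it fell in WT (-0.84, adjusted p = 0.0469) and Sesn2SkM-Tg muscle (-1.08, adjusted p = 0.00765).

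Jsrp1 (chr10:80808496-80813498) encodes a junctional protein that binds the voltage sensor and calsequestrin. In set 2, Jsrp1 was 248, 237, 223 and 254 in basal, 195, 181, 202 and 191 in denervated and 260.1, 240.1, 259 and 259.9 in immobilized WT muscle. Jsrp1 in Sesn1KO muscle was 299, 294, 247 and 257 basal and 255, 219.7, 373 and 196 immobilized. Denervated values lay below all basal ones, yet the call (-0.32 ± 0.13, adjusted p = 0.0413) was lost in 7 of 8 fits with 1 library left out (up to 0.0956), and the sign turned with libraries rescaled to the same total (log2 fold change 0.14, adjusted p = 0.255). Basal Jsrp1 in set 1 was 199, 187, 212 and 317 in WT, 257, 255, 289.9 and 273 in Sesn1SkM-Tg and 328, 495, 316 and 296 in Sesn2SkM-Tg muscle. Immobilized, Jsrp1 was 199.6, 238 and 189.7 in WT, 243, 216 and 209.6 in Sesn1SkM-Tg and 304, 239, 306 and 279 in Sesn2SkM-Tg muscle. Jsrp1 was not called in any immobilization comparison (fold changes from -0.32 to 0.083).

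The other partners are given by group. Fkbp1a, the small protein that steadies the closed release channel, rose after denervation, being 80.5 to 86.1 in basal and 110.3 to 131 in denervated muscle (0.50 ± 0.08, adjusted p = 2.08e-05), and its immobilization fold changes of -0.13 to 0.17 were not called. S100a1, a calcium sensor of the channel, fell after denervation (basal 71.98 to 108, denervated 37.8 to 49.3, -0.99 ± 0.11) and immobilization in set 2 (-0.41 ± 0.11). In set 1 S100a1 fell in both transgenic groups (-0.58 and -0.61; lost in 5 of 7 and 3 of 8 fits with 1 library left out, adjusted p up to 0.176, and in 4 of 9 and 3 of 9 alternatives, up to 0.245) and was not called in WT (-0.42 ± 0.22, adjusted p = 0.151). Asph, whose locus also gives the junctional protein junctin, fell after denervation (basal 165 to 228, denervated 110.2 to 153, -0.52 ± 0.13, adjusted p = 0.00181) but rose after immobilization in WT (263 to 311, 0.59 ± 0.13, adjusted p = 0.00134) and Sesn1KO muscle (0.69 ± 0.13, adjusted p = 0.00027). With libraries rescaled to the same total the denervation call of Asph was lost (log2 fold change -0.055, adjusted p = 0.682), and in set 1 Asph was not called (0.27, 0.35 and 0.23). Tmem38a, a potassium channel that balances the charge of released calcium, fell after denervation (basal 1209 to 1385, denervated 590.3 to 943, -0.78 ± 0.13, adjusted p = 3.12e-05). After immobilization of WT muscle in set 2 (-0.34 ± 0.13, adjusted p = 0.0491) its call was lost in 7 of 8 fits with 1 library left out (up to 0.12) and in 5 of 9 alternatives (up to 0.141). Tmem38a also fell in immobilized Sesn1KO (-0.40 ± 0.13, adjusted p = 0.019), Sesn1SkM-Tg (-0.57 ± 0.19, adjusted p = 0.028) and Sesn2SkM-Tg muscle (-0.69 ± 0.18, adjusted p = 0.00641), the first 2 calls lost in 3 of 8 and 4 of 7 such fits (up to 0.0666 and 0.148), and was not called in WT of set 1 (-0.44 ± 0.19, adjusted p = 0.0908).

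The 4 proteins that hold calcium in the store all fell after denervation (27.7% of all genes). After immobilization of WT muscle Casq1, Hrc and Srl fell in both sets, whereas Casq2 rose in set 2. Of all genes, 17.7% fell and 16.2% rose in set 2, and 14.5% fell in set 1. Casq1 (chr1:172209894-172219868), fast calsequestrin, whose upstream region is shown above, is the main calcium buffer of the store. In set 2, Casq1 was 2169, 2156, 2418 and 2718 in basal, 540.2, 512, 661 and 695 in denervated and 1392, 1292, 1159 and 1393 in immobilized WT muscle. Casq1 in Sesn1KO muscle was 2788, 2419.8, 2153 and 2383 basal and 1227, 895, 1887 and 892 immobilized. The WT groups formed 3 separate ranges, basal highest and denervated lowest, and all immobilized Sesn1KO libraries lay below the basal ones. Casq1 fell, with log2 fold changes of -1.98 ± 0.18 after denervation, of -0.85 ± 0.18 after immobilization and of -1.06 ± 0.18 in Sesn1KO muscle. Basal Casq1 in set 1 was 2588, 2167, 1788 and 2349.6 in WT, 2286, 2361, 2480.2 and 2249 in Sesn1SkM-Tg and 2307, 2225, 1957 and 1874 in Sesn2SkM-Tg muscle. Immobilized, Casq1 was 916, 1105 and 865 in WT, 1613, 789 and 849.5 in Sesn1SkM-Tg and 874, 423, 814 and 720.5 in Sesn2SkM-Tg muscle. No immobilized library of set 1 reached the basal values of its genotype, and Casq1 fell, in WT, Sesn1SkM-Tg and Sesn2SkM-Tg muscle, with log2 fold changes of -1.20, -1.19 and -1.61.

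Casq2 (chr3:102086415-102146514), the calsequestrin of slow fibers and heart, moved in opposite directions. In set 2, Casq2 was 43.2, 49.8, 55.9 and 20.5 in basal, 19.2, 13.9, 9.46 and 10.6 in denervated and 80.7, 71.5, 91.6 and 96.5 in immobilized WT muscle. Casq2 in Sesn1KO muscle was 42.2, 43.8, 73.1 and 48.4 basal and 120.2, 66.1, 169.8 and 117 immobilized. Immobilized values lay above every basal WT library and denervated values below every one, while in Sesn1KO muscle immobilized replicate 2 overlapped the basal range. Casq2 fell after denervation (-1.56 ± 0.28, adjusted p = 7.43e-05) and rose after immobilization in WT (1.07 ± 0.28, adjusted p = 0.00536) and Sesn1KO muscle (1.13 ± 0.28, adjusted p = 0.00302). Basal Casq2 in set 1 was 17.2, 35.6, 55.8 and 95.7 in WT, 24.05, 23.3, 15.8 and 62.5 in Sesn1SkM-Tg and 56.5, 63.97, 27.7 and 35.6 in Sesn2SkM-Tg muscle. Immobilized, Casq2 was 43.9, 73.2 and 34.1 in WT, 77.3, 35.7 and 142 in Sesn1SkM-Tg and 78.5, 40.4, 73.6 and 57.8 in Sesn2SkM-Tg muscle. Basal values in set 1 ranged widely, and immobilized values overlapped them in WT (0.16 ± 0.50, adjusted p = 0.836) and Sesn2SkM-Tg muscle (0.47 ± 0.47, adjusted p = 0.475), where Casq2 was not called. It was called higher in Sesn1SkM-Tg muscle (1.39 ± 0.50, adjusted p = 0.037), but in 5 of 7 fits with 1 library left out it was not (up to 0.239). Slow-fiber markers (Myh7, Tnni1, Tnnt1, Tnnc1, Myl2 and Myl3) summed to 43.2 to 119 in basal, 18.7 to 42.4 in denervated and 102 to 136 in immobilized WT muscle of set 2, and to 11.2 to 94.1 in basal and 72.3 to 91.5 in immobilized Sesn1SkM-Tg muscle, with 1 of 6 called higher and 1 lower after denervation and 2 higher after immobilization of WT muscle. In Sesn1KO muscle, where Casq2 rose, the sum was 81.7 to 209 in basal and 40.4 to 174 in immobilized libraries, lower in median (164 and 129), with 0 of 6 called. Their part in the change of Casq2 was not tested. Casq2 held 0.536 to 1.62 % of the summed calsequestrin level per kb in basal, 3.79 to 5.34 % in immobilized and 1.01 to 2.48 % in denervated WT muscle of set 2.

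Hrc (chr7:45335290-45338974), the histidine-rich calcium-binding protein of the store, was the member that fell most after denervation. In set 2, Hrc was 896, 932, 933 and 904 in basal, 169.6, 133, 234 and 227 in denervated and 485, 551, 417 and 504 in immobilized WT muscle. Hrc in Sesn1KO muscle was 949, 870.2, 916 and 910.1 basal and 416, 349.7, 503 and 430.3 immobilized. No values overlapped between the WT groups or between basal and immobilized Sesn1KO muscle. Hrc fell, with log2 fold changes of -2.29 ± 0.14, adjusted p = 2.08e-11, after denervation, of -0.91 ± 0.14 after immobilization and of -1.11 ± 0.14 in Sesn1KO muscle. Basal Hrc in set 1 was 808, 767, 824 and 1027 in WT, 772, 788, 758 and 854 in Sesn1SkM-Tg and 854, 811, 681 and 767 in Sesn2SkM-Tg muscle. Immobilized, Hrc was 329, 394 and 295 in WT, 433, 281 and 248 in Sesn1SkM-Tg and 376, 166, 319.8 and 337 in Sesn2SkM-Tg muscle. Hrc fell, in WT, Sesn1SkM-Tg and Sesn2SkM-Tg muscle, with log2 fold changes of -1.33, -1.34 and -1.43, with no overlap.

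Srl (chr16:4480216-4541816) encodes sarcalumenin, which binds calcium and steadies the pump. In set 2, Srl was 1715, 1615, 1713 and 1745 in basal, 565, 687, 719 and 596 in denervated and 1446, 1208, 1310.2 and 1538 in immobilized WT muscle. Srl in Sesn1KO muscle was 1887, 1797, 1689.8 and 1737 basal and 1295, 1199, 1831 and 1212 immobilized. The 3 WT groups did not overlap, but immobilized Sesn1KO replicate 3 lay within the basal range. Srl fell after denervation (-1.41 ± 0.12, adjusted p = 2.92e-09). Its call after immobilization in WT (-0.31 ± 0.12, adjusted p = 0.0498) was lost in 7 of 8 fits with 1 library left out (up to 0.149) and in 6 of 9 alternatives (up to 0.155), and in Sesn1KO muscle (-0.38 ± 0.12, adjusted p = 0.0149) without immobilized replicate 2 or 4 (up to 0.0551). Basal Srl in set 1 was 1725, 1757, 1532 and 1922 in WT, 1756, 1678, 1589 and 1856 in Sesn1SkM-Tg and 1984, 1782, 2122 and 1982 in Sesn2SkM-Tg muscle. Immobilized, Srl was 975, 928 and 751 in WT, 1241, 799.7 and 658 in Sesn1SkM-Tg and 1052, 695, 917 and 888 in Sesn2SkM-Tg muscle. In set 1 Srl fell with no overlap and log2 fold changes of -0.97, -0.98 and -1.16 in WT, Sesn1SkM-Tg and Sesn2SkM-Tg muscle.

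Among the pumps, their inhibitors and the buffer, Atp2a1 and Pvalb fell and Atp2a2 rose. Of these 5 genes, 2 rose and 2 fell after denervation (27.8% and 27.7% of all genes). After immobilization of WT muscle 1 rose and 2 fell in set 2 (16.2% and 17.7% of all genes). In set 1, 3 rose and 2 fell (14.9% and 14.5% of all genes). Atp2a1 (chr7:126445858-126463108) encodes SERCA1, the pump of fast fibers, and its upstream region is shown above. In set 2, Atp2a1 was 31573, 26105, 30938 and 27922 in basal, 9537, 11096, 13775 and 13423 in denervated and 18697, 19179, 18369 and 18275 in immobilized WT muscle. Atp2a1 in Sesn1KO muscle was 30066, 28397, 25731 and 28536 basal and 14376, 13002, 19886 and 17335 immobilized. The WT groups formed 3 separate ranges with denervated muscle lowest. Atp2a1 fell after denervation (-1.30 ± 0.16), after immobilization (-0.64 ± 0.16) and in Sesn1KO muscle (-0.82 ± 0.16). Basal Atp2a1 in set 1 was 29670.0, 29432, 23718 and 31636 in WT, 27619, 25921, 24441 and 30972 in Sesn1SkM-Tg and 27667, 27292, 26580.0 and 26380.2 in Sesn2SkM-Tg muscle. Immobilized, Atp2a1 was 17057, 13462 and 11913 in WT, 15069.9, 12156 and 10241 in Sesn1SkM-Tg and 16052, 12284, 14702 and 15194 in Sesn2SkM-Tg muscle. It fell with no overlap in WT (-1.02 ± 0.22), Sesn1SkM-Tg (-1.14 ± 0.22) and Sesn2SkM-Tg muscle (-0.90 ± 0.20). With quantile normalization 3 of the immobilization calls were lost: WT of set 2 (log2 fold change -0.22, adjusted p = 0.2), WT of set 1 (log2 fold change -0.48, adjusted p = 0.0569) and Sesn2SkM-Tg (log2 fold change -0.34, adjusted p = 0.146).

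Atp2a2 (chr5:122453513-122502225), SERCA2, the pump of slow fibers and heart, rose in every disuse comparison. In set 2, Atp2a2 was 27.2, 29, 26.7 and 21.1 in basal, 66.5, 59.8, 66.4 and 50.5 in denervated and 38.4, 36.5, 34.04 and 38.97 in immobilized WT muscle. Atp2a2 in Sesn1KO muscle was 20.2, 40.8, 22.7 and 31.2 basal and 47.1, 54.2, 39.5 and 41.3 immobilized. Denervated values were all above the immobilized ones, which were all above the basal ones, while in Sesn1KO muscle basal replicate 2 lay within the immobilized range. Atp2a2 rose after denervation (1.20 ± 0.16, adjusted p = 2.34e-06), after immobilization (0.50 ± 0.16, adjusted p = 0.021, or not called at adjusted p = 0.0756 without basal replicate 4) and in Sesn1KO muscle (0.69 ± 0.16). Basal Atp2a2 in set 1 was 32.1, 31.1, 43.7 and 30.1 in WT, 31.2, 29.8, 27.3 and 28.7 in Sesn1SkM-Tg and 22.97, 21.8, 21.6 and 22.8 in Sesn2SkM-Tg muscle. Immobilized, Atp2a2 was 44.98, 47.7 and 55.4 in WT, 48.9, 47.6 and 63.9 in Sesn1SkM-Tg and 33.5, 52.04, 31.9 and 45.1 in Sesn2SkM-Tg muscle. It rose in WT of set 1 (0.53 ± 0.16, adjusted p = 0.0173, or 0.105 without immobilized replicate 3), in Sesn1SkM-Tg (0.84 ± 0.16) and in Sesn2SkM-Tg muscle (0.81 ± 0.15), and no immobilized library lay within the basal range of its genotype. Per kb, Atp2a2 held 0.0432 to 0.0635 % of the summed level of both pumps in basal, 0.106 to 0.122 % in immobilized and 0.215 to 0.397 % in denervated WT muscle of set 2. The pumps are paralogs, and how reads shared by both were divided between them was not tested. In WT muscle of set 2, 7 fast-fiber markers (Myh4, Myh1, Tnni2, Tnnt3, Tnnc2, Actn3 and Mylpf) summed to 100756 to 107927 in basal muscle. Their sum was 36509 to 49322 after denervation and 87840 to 99257 after immobilization. The slow-fiber sum given above was 43.2 to 119, 18.7 to 42.4 and 102 to 136 in this order. The part of fiber type in these changes was not tested.

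**Figure D3:**
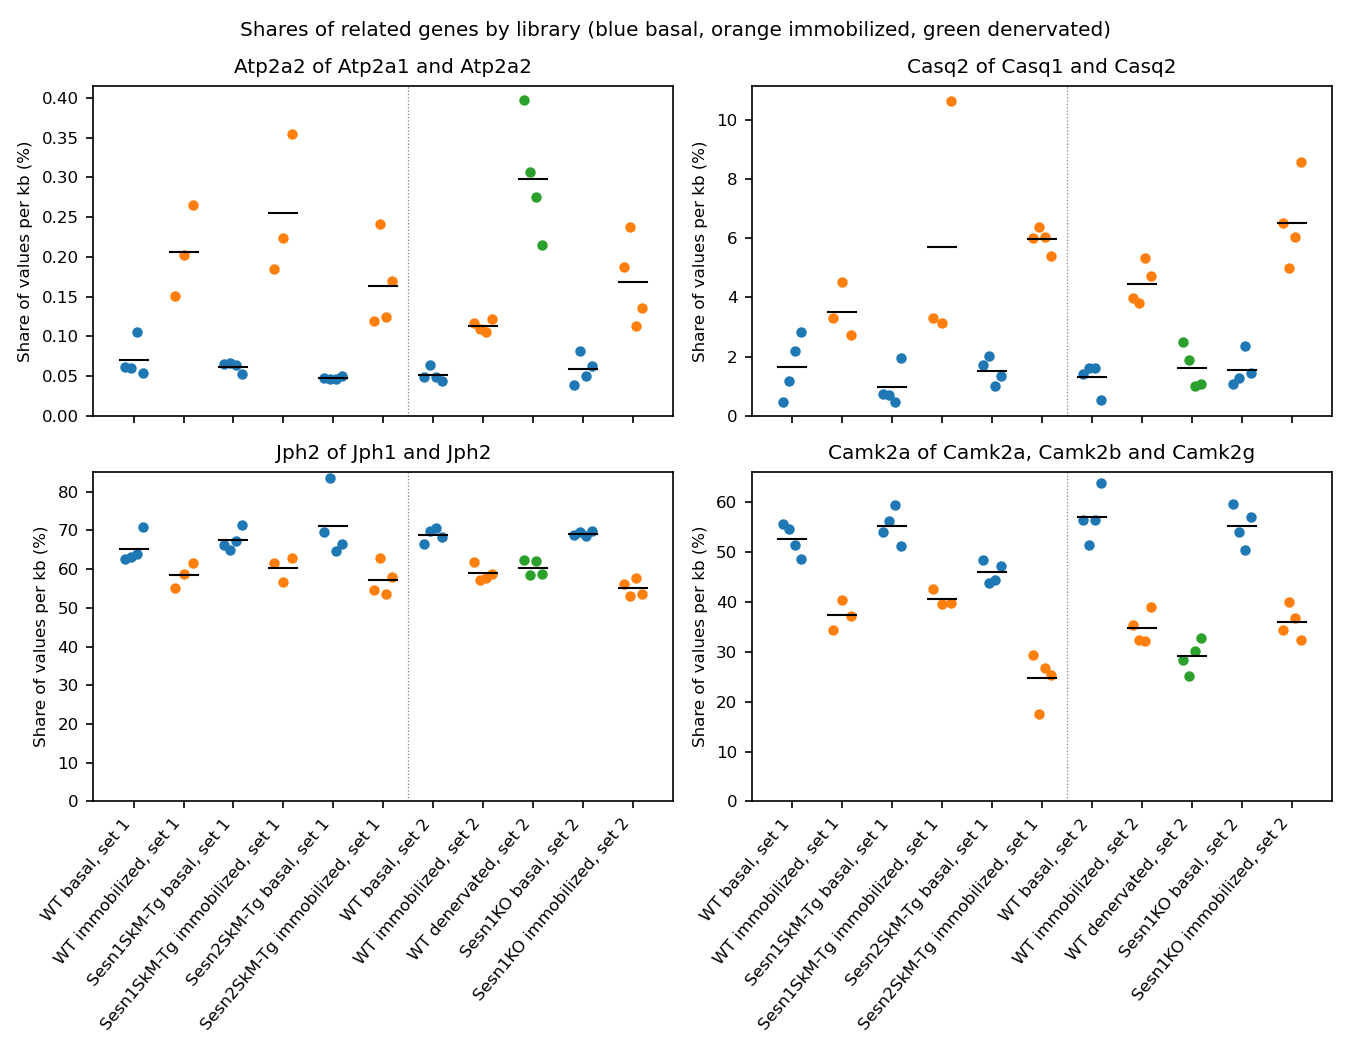
Share of Atp2a2 in the 2 pumps, Casq2 in the calsequestrins, Jph2 in the junctophilins and Camk2a in Camk2a, Camk2b and Camk2g, in percent of the summed level per kb of exon, by library in the 11 groups (points; lines, group means). In WT muscle of set 2 the share of Atp2a2 was highest after denervation, that of Casq2 after immobilization, and that of Camk2a was lower after both.

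Sln (chr9:53850164-53854560) and Pln (chr10:53337667-53345987) encode sarcolipin and phospholamban, small inhibitors of the pumps that stood near 1 in basal muscle. In set 2, Sln was 0.473, 0.995, 1.93 and 0.411 in basal, 1.96, 1.16, 1.14 and 1.15 in denervated and 0.668, 0.802, 0.934 and 1.41 in immobilized WT muscle. Sln in Sesn1KO muscle was 0.698, 0.962, 0.754 and 2.56 basal and 1.55, 3.58, 4.03 and 1.51 immobilized. Sln of the WT groups overlapped (0.32 ± 0.28, adjusted p = 0.342, after denervation and 0.053 ± 0.28, adjusted p = 0.906, after immobilization). It was called higher in immobilized Sesn1KO muscle (0.71 ± 0.28, adjusted p = 0.0486) but not in 5 of 8 fits with 1 library left out (up to 0.154) or in 4 of 9 alternatives (up to 0.102). Basal Sln in set 1 was 0.660, 0.501, 0.880 and 1.40 in WT, 0.295, 0.785, 0.361 and 1.18 in Sesn1SkM-Tg and 0.898, 0.733, 0.494 and 0.709 in Sesn2SkM-Tg muscle. Immobilized, Sln was 2.29, 4.90 and 2.92 in WT, 1.46, 4.14 and 2.07 in Sesn1SkM-Tg and 1.33, 4.51, 1.94 and 0.991 in Sesn2SkM-Tg muscle. Immobilized values exceeded all basal ones of WT, Sesn1SkM-Tg and Sesn2SkM-Tg muscle, and Sln rose (1.21 ± 0.30, adjusted p = 0.00552, 1.07 ± 0.30, adjusted p = 0.0101, and 0.79 ± 0.28, adjusted p = 0.0371). The Sesn1SkM-Tg call was lost without immobilized replicate 2 (0.085) and the Sesn2SkM-Tg call in 6 of 8 fits (up to 0.183), and both with quantile normalization (0.0548 and 0.0619).

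In set 2, Pln was 1.78, 2.06, 1.39 and 1.28 in basal, 21.8, 14.4, 15.01 and 12.6 in denervated and 1.17, 1.30, 1.66 and 0.939 in immobilized WT muscle. Every denervated library exceeded every other of these groups, and basal and immobilized values overlapped. Pln rose after denervation (2.67 ± 0.21, adjusted p = 7.97e-10) and its fold change was -0.21 ± 0.21, adjusted p = 0.461, after immobilization. Pln in Sesn1KO muscle was 1.62, 1.36, 1.45 and 1.92 basal and 1.57, 0.610, 1.82 and 2.63 immobilized. Basal Pln in set 1 was 0.892, 1.61, 1.36 and 1.33 in WT, 1.85, 1.86, 0.413 and 2.82 in Sesn1SkM-Tg and 3.03, 1.99, 1.92 and 1.51 in Sesn2SkM-Tg muscle. Immobilized, Pln was 6.50, 5.32 and 1.86 in WT, 2.00, 3.54 and 2.14 in Sesn1SkM-Tg and 3.11, 3.17, 3.97 and 5.22 in Sesn2SkM-Tg muscle. In set 1 Pln rose in WT muscle (1.17 ± 0.31, adjusted p = 0.00765, or 0.0501 without immobilized replicate 1) with no overlap, and was not called in Sesn1SkM-Tg (0.44 ± 0.31, adjusted p = 0.278), Sesn2SkM-Tg (0.65 ± 0.29, adjusted p = 0.0923) or Sesn1KO muscle (-0.015 ± 0.21, adjusted p = 0.965). Phospholamban is known from heart, slow fibers and smooth muscle. Cardiac markers (Myh6, Nppa and Tnnt2, 3 in the table) summed to 2.93 to 6.94 in basal and 4.63 to 10.5 in denervated WT muscle, and 4 smooth muscle markers (Myh11, Acta2, Tagln and Cnn1) to 100.3 to 111 and 32.7 to 47.6, so the smooth muscle sum was lower where Pln was higher. In WT muscle of set 1 the cardiac sum was 2.60 to 8.28 in basal and 4.40 to 14.4 in immobilized muscle and the smooth muscle sum 39.3 to 62.8 and 85.3 to 156, so both had higher maxima where Pln was higher, and their part in it was not tested.

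Pvalb (chr15:78191114-78206400), parvalbumin, the cytosolic buffer that speeds relaxation of fast fibers, fell in every disuse comparison. In set 2, Pvalb was 6956, 6789, 8143 and 8972 in basal, 2997, 3144, 3528 and 4275 in denervated and 4483, 4675, 3186 and 3008 in immobilized WT muscle. Pvalb in Sesn1KO muscle was 9371, 8105, 5469 and 7157 basal and 3538, 3032, 4553 and 2644 immobilized. Denervated and immobilized values overlapped each other, and both lay below all basal ones. Pvalb fell, with log2 fold changes of -1.15 ± 0.19 after denervation, -1.03 ± 0.19 after immobilization and -1.13 ± 0.19 in Sesn1KO muscle. Basal Pvalb in set 1 was 8129, 7162, 5449 and 6441 in WT, 7907, 7646, 9279 and 7789 in Sesn1SkM-Tg and 7793, 7756, 6666 and 5706 in Sesn2SkM-Tg muscle. Immobilized, Pvalb was 3590.4, 3721 and 3296 in WT, 5282, 2819 and 3167 in Sesn1SkM-Tg and 2845, 2169, 3097 and 3184 in Sesn2SkM-Tg muscle. No values overlapped in set 1, where Pvalb fell, in WT, Sesn1SkM-Tg and Sesn2SkM-Tg muscle, with log2 fold changes of -0.93, -1.17 and -1.31. With quantile normalization the calls after denervation (log2 fold change -0.28, adjusted p = 0.163) and in WT of set 1 (log2 fold change -0.41, adjusted p = 0.073) were lost.

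Of the 3 genes of calcium entry, Stim1 fell in every disuse comparison. Stim1 (chr7:102267806-102437319) encodes the sensor of store filling, which opens the Orai1 channel of the surface membrane. In set 2, Stim1 was 233, 219.6, 215 and 196 in basal, 156, 152, 137 and 137 in denervated and 136, 146, 139.5 and 162 in immobilized WT muscle. Stim1 in Sesn1KO muscle was 224, 217, 199 and 232 basal and 143, 113, 193 and 130.4 immobilized. Basal WT values all exceeded the denervated and immobilized ones, which overlapped. Stim1 fell, with log2 fold changes of -0.57 ± 0.12 after denervation, -0.56 ± 0.12 after immobilization and -0.61 ± 0.12 in Sesn1KO muscle. Basal Stim1 in set 1 was 216, 214, 214 and 259.9 in WT, 218, 214, 206 and 251 in Sesn1SkM-Tg and 223, 190.5, 231 and 248 in Sesn2SkM-Tg muscle. Immobilized, Stim1 was 138, 118 and 97.4 in WT, 152, 108 and 105 in Sesn1SkM-Tg and 137, 93.7, 131 and 115 in Sesn2SkM-Tg muscle. In set 1 it fell with no overlap and log2 fold changes of -0.95, -0.88 and -0.91 in WT, Sesn1SkM-Tg and Sesn2SkM-Tg muscle. With libraries rescaled to the same total the denervation call of Stim1 was lost (log2 fold change -0.10, adjusted p = 0.433).

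Orai1, the channel itself, fell after denervation only among the 6 treatment comparisons, where it was 11.1 to 11.5 against 17.5 to 24.9 in basal muscle (-0.82 ± 0.12, adjusted p = 7.02e-06), and its fold changes after immobilization ran from -0.26 to 0.09. The denervated values of Orai1 lay below all basal ones. Mcu, the pore of the mitochondrial calcium uniporter, was called in none of the 17 comparisons (mean 37.5 ± 2.25 in basal, 36.2 ± 4.19 in denervated and 41.4 ± 7.59 in immobilized WT muscle of set 2). With libraries rescaled to the same total Mcu was called higher after denervation (log2 fold change 0.40, adjusted p = 0.0116).

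Of the calmodulin-dependent kinases, which read the calcium pulses, Camk2a fell in every disuse comparison. In set 2, Camk2a was 459.8, 400.3, 472 and 611 in basal, 108, 109, 141 and 147 in denervated and 211, 159, 158 and 234 in immobilized WT muscle. Camk2a in Sesn1KO muscle was 563, 461, 369 and 442 basal and 176, 144, 249 and 158 immobilized. Basal, immobilized and denervated WT values formed 3 separate ranges in falling order, and immobilized Sesn1KO values lay below the basal ones. Camk2a fell, with log2 fold changes of -1.94 ± 0.17 after denervation, -1.35 ± 0.17 after immobilization and -1.35 ± 0.17 in Sesn1KO muscle. Basal Camk2a in set 1 was 469, 437, 377 and 403 in WT, 439, 432, 499.5 and 432 in Sesn1SkM-Tg and 405, 331, 376 and 389.9 in Sesn2SkM-Tg muscle. Immobilized, Camk2a was 156, 180.5 and 149 in WT, 235, 167 and 139.7 in Sesn1SkM-Tg and 139.6, 73.9, 135 and 106 in Sesn2SkM-Tg muscle. No values overlapped in set 1, and Camk2a fell, in WT, Sesn1SkM-Tg and Sesn2SkM-Tg muscle, with log2 fold changes of -1.38, -1.35 and -1.75. Its share of the summed level of the 3 kinases per kb was 51.5 to 63.8 % in basal, 32.2 to 38.9 % in immobilized and 25.1 to 32.7 % in denervated WT muscle of set 2. The plot of shares by library shows the lower share of Camk2a after immobilization in each genotype.

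Camk2b (chr11:5969644-6066362) was called in none of the treatment comparisons. In set 2, Camk2b was 174, 201, 174 and 148 in basal, 143, 158, 174 and 163 in denervated and 221, 177, 203 and 213 in immobilized WT muscle. Camk2b in Sesn1KO muscle was 169.7, 204, 154 and 155 basal and 166, 135, 289.9 and 179 immobilized. Basal WT values overlapped those of each treatment (-0.12 ± 0.16, adjusted p = 0.535, after denervation and 0.23 ± 0.16, adjusted p = 0.295, after immobilization). Every denervated library lay below every immobilized WT one. With libraries rescaled to the same total Camk2b was called higher after denervation than in basal muscle (log2 fold change 0.34, adjusted p = 0.0357). Basal Camk2b in set 1 was 185, 169.9, 169 and 205 in WT, 173, 163, 164 and 204 in Sesn1SkM-Tg and 239.7, 272, 265 and 244 in Sesn2SkM-Tg muscle. Immobilized, Camk2b was 159, 144 and 125 in WT, 181, 140.2 and 108 in Sesn1SkM-Tg and 192, 207, 217 and 201 in Sesn2SkM-Tg muscle. In set 1 its immobilization fold changes were -0.35 ± 0.14, adjusted p = 0.0658, in WT, -0.32 ± 0.14, adjusted p = 0.0813, in Sesn1SkM-Tg, and -0.32 ± 0.13, adjusted p = 0.0715, in Sesn2SkM-Tg muscle. Camk2g, the broadly expressed isoform, fell in WT (-0.57 ± 0.13, adjusted p = 0.00225), Sesn1SkM-Tg (-0.62 ± 0.13) and Sesn2SkM-Tg muscle of set 1 (-0.41 ± 0.12), calls that were lost in all 3 with libraries rescaled to the same total (adjusted p = 0.162, 0.0574 and 0.524). In set 2 Camk2g was called lower only in immobilized Sesn1KO muscle (-0.46 ± 0.14, adjusted p = 0.0139; not without immobilized replicate 2), with -0.22 ± 0.14, adjusted p = 0.246, in immobilized and -0.32 ± 0.14, adjusted p = 0.0574, in denervated WT muscle.

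Denervated and immobilized WT muscle of set 2 were also compared directly, on libraries of 2 treatments that do not share a sample. Of the 35 members, 18 were lower and 7 higher after denervation than after immobilization (18.4% and 20.5% of all genes; members' median -0.40 against -0.019). Casq2 lay furthest apart among the lower ones (-2.63 ± 0.28, adjusted p = 2.73e-07), followed by Hrc (-1.38 ± 0.14), Jph1 (-1.31 ± 0.12), Trdn (-1.28 ± 0.16) and Jph2 (-1.22 ± 0.13). Rrad (3.36 ± 0.53), Pln (2.89 ± 0.21) and Cacnb1 (1.03 ± 0.14) were those most above the immobilized level. Ryr1 (-0.78 ± 0.18), Cacna1s (-0.75 ± 0.17), Asph (-1.11 ± 0.13) and Orai1 (-0.91 ± 0.12) were lower in denervated muscle. Quantile normalization ended the calls of Ryr1 (log2 fold change -0.084, adjusted p = 0.691), Cacna1s (log2 fold change -0.23, adjusted p = 0.205) and Atp2a1 (log2 fold change -0.16, adjusted p = 0.334), equal totals those of Jsrp1, Camk2a and S100a1 (adjusted p = 0.655, 0.196 and 0.0518), and both sets in 1 fit that of Cacna2d1 (0.0505). Stac3 (-0.013 ± 0.16, adjusted p = 0.957; 95% interval -0.34 to 0.32), Stim1 (-0.0046 ± 0.12, adjusted p = 0.979; -0.25 to 0.24) and Pvalb (-0.12 ± 0.19, adjusted p = 0.634; -0.52 to 0.27) were not called different. Among members called in either fit, the direction of 4 depended on the scaling. With quantile normalization Pvalb was called higher after denervation (log2 fold change 0.58, adjusted p = 0.00909), as was Bin1 (log2 fold change 0.43, adjusted p = 0.000389), while Tmem38a turned without a call (log2 fold change 0.12, adjusted p = 0.376). With equal totals Stim1 was called higher (log2 fold change 0.33, adjusted p = 0.0122), again with Bin1 (log2 fold change 0.28, adjusted p = 0.0129). The split of the members was then 14 lower and 10 higher with quantile normalization (17.8% and 20.6% of all genes), and 14 and 11 with equal totals (8.68% and 40.3%), where the median over all genes stood at 0.26.

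The WT immobilization was done in both sets, and the difference of its effects was tested over all 42 libraries, since levels can be compared only within a set. For 3 members the effect differed (6.2% of all genes). Calm2 fell in set 2 and was not called in set 1 (set 2 minus set 1 -1.03 ± 0.21, adjusted p = 0.00233), Pln rose in set 1 and was not called in set 2 (-1.38 ± 0.38, adjusted p = 0.0217), and Cacng6 fell in set 1 and was not called in set 2 (0.82 ± 0.19, adjusted p = 0.00746). The Pln difference was not called without immobilized replicate 1 or 2 of WT in set 1 (adjusted p up to 0.0716) or with quantile normalization (0.0893). Srl (0.67 ± 0.21, adjusted p = 0.053), Ryr1 (0.90 ± 0.29, adjusted p = 0.0573), Cacna1s (0.67 ± 0.24, adjusted p = 0.0899) and Sln (-1.16 ± 0.42, adjusted p = 0.0927) did not pass, and without WT immobilized replicate 1 of set 1 the first 3 of these passed as well, in which case 5 members were called. The set cannot be told apart from anything else that differed between the 2 sets. Of the macrophage and leukocyte markers, 6 of 6 were called higher after immobilization of WT muscle in set 1 and 2 of 6 in set 2, a difference that was not tested.

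**Figure D4:**
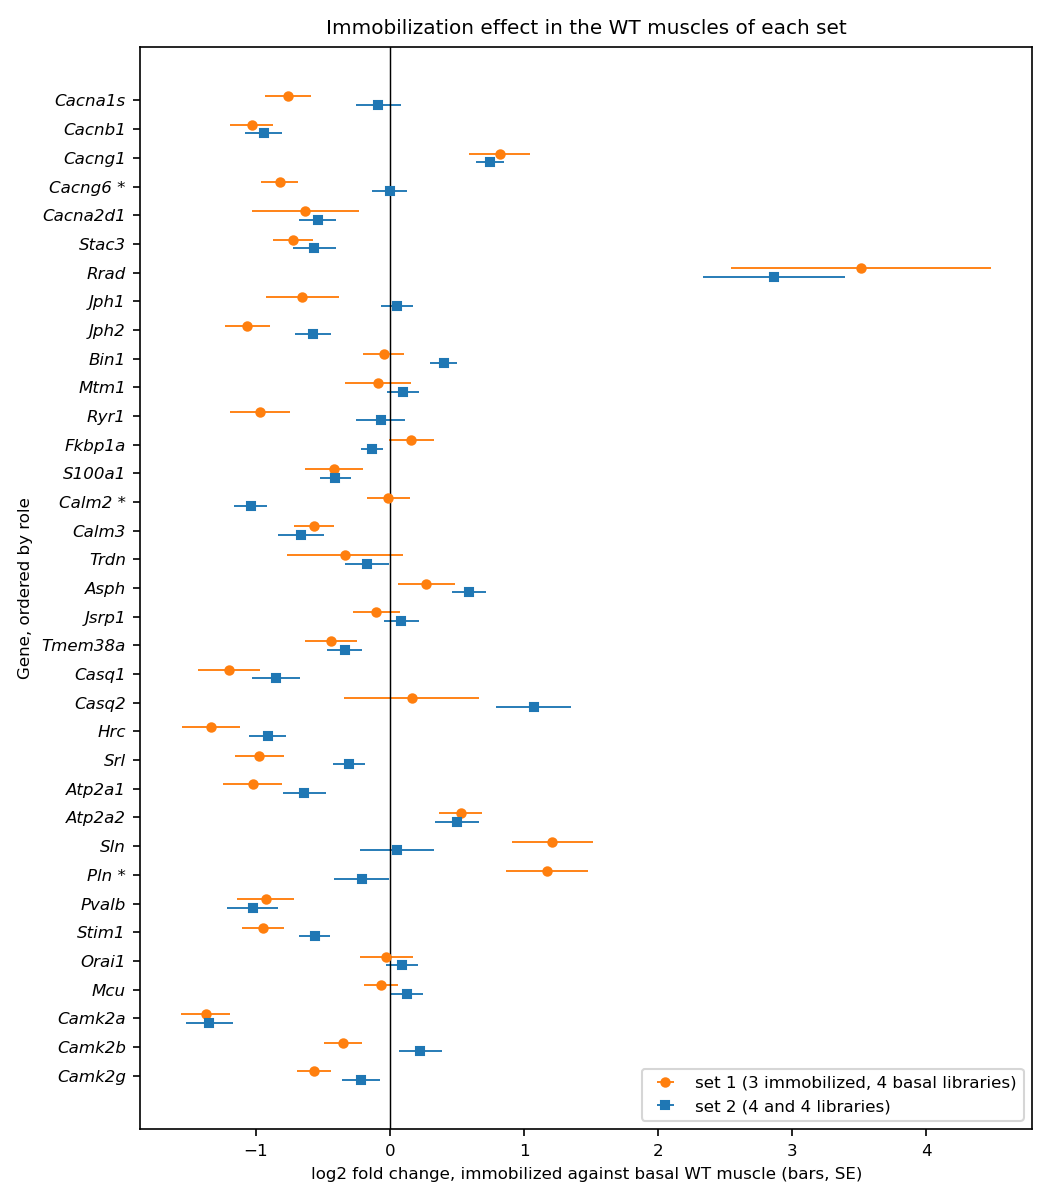
Log2 fold change (± SE) of each member in immobilized against basal WT muscle, with 1 row per gene and separate markers for set 1 and set 2, and an asterisk where the difference between the sets was called. Calm2, Pln and Cacng6 carry the asterisk, and Rrad has the highest value in both sets.

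The genotypes were compared to see whether sestrins change this machinery at rest or in disuse. In Sesn1KO muscle, where Sesn1 was lower at rest but overlapped the WT range after immobilization, no member was called at rest (0 of 35, 0.147% of all genes; limma, 0 members with an unadjusted p below 0.05). The fold changes of Sesn1KO against WT basal muscle ran from -0.19 (Calm3) to 0.61 (Rrad), and the median half-width of the 95% intervals was 0.289 on the log2 scale. After immobilization none was called either (0 of 35, 0.947% of all genes; limma, 3 with an unadjusted p below 0.05: Rrad 1.13 ± 0.53, adjusted p = 0.342, Fkbp1a 0.18 ± 0.08, adjusted p = 0.308, and Sln 0.85 ± 0.28, adjusted p = 0.146). Rrad passed without immobilized Sesn1KO replicate 4, the lowest of its group. The effect of immobilization was not called different for any member between Sesn1KO and WT muscle (0 of 35, 0.022%; limma, 0 unadjusted; from -0.37 for Cacng6 to 0.65 for Sln).

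With the Sesn1 transgene no member was called at rest (0 of 35, 0.0292% of all genes; limma, 2 with an unadjusted p below 0.05, Calm2 0.36 ± 0.15 and Cacng6 -0.35 ± 0.13), after immobilization (0 of 35, 0.0073%; limma, 0 unadjusted) or in the difference of effects (0 of 35, 0% of all genes; limma, 1 unadjusted, Cacng6 0.42 ± 0.19). Fold changes ran from -0.62 (Casq2) to 0.36 (Calm2) at rest and from -0.56 (Pln) to 0.60 (Casq2) after immobilization. The median half-width of the 95% intervals was 0.374 at rest and 0.432 after immobilization.

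With the Sesn2 transgene, 2 members were called at rest (2.5% of all genes): Jsrp1 was higher (0.65 ± 0.16, adjusted p = 0.0323) and Atp2a2 lower (-0.58 ± 0.15, adjusted p = 0.0363). All 4 Sesn2SkM-Tg libraries of Atp2a2 lay below the WT ones, whereas basal WT replicate 4 of Jsrp1 lay within the Sesn2SkM-Tg range. The highest Jsrp1 value of each group is that of its library low in long transcripts. Without both libraries 3 were called, Jsrp1 (0.65, adjusted p = 0.00312), Atp2a2 (-0.62, adjusted p = 0.0436) and S100a1 (0.62, adjusted p = 0.0203), the last of which was not called with all libraries (0.64 ± 0.20, adjusted p = 0.0973). Both calls were fragile: that of Jsrp1 was lost in 5 and that of Atp2a2 in 7 of 8 fits with 1 library left out (adjusted p up to 0.139 and 0.145), and both were lost when only the compared groups were fitted (0.249 and 0.123). The Atp2a2 call was lost in 4 of 9 alternatives in all. Without WT basal replicate 4, 5 members were called. Camk2b was higher in each basal Sesn2SkM-Tg library than in any WT one but missed the threshold (0.49 ± 0.13, adjusted p = 0.0501).

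After immobilization 2 members differed between Sesn2SkM-Tg and WT muscle (2.94% of all genes). Calm2 was lower (-0.68 ± 0.16, adjusted p = 0.0268) and Camk2b higher (0.52 ± 0.14, adjusted p = 0.0484), with no overlap of the groups in either gene. The Calm2 call was lost in 5 and the Camk2b call in 7 of 7 fits with 1 library left out (up to 0.11 and 0.234), and in 1 of 9 and 4 of 9 alternatives (up to 0.0554 and 0.0782). The effect of immobilization was not called different for any member (0 of 35, 0.0073% of all genes; limma, 3 with an unadjusted p below 0.05, Calm2 -0.68 ± 0.22, Calm3 -0.43 ± 0.20 and Jph2 -0.51 ± 0.23). The values of Jsrp1, Atp2a2, Calm2 and Camk2b are plotted by library.

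**Figure D5:**
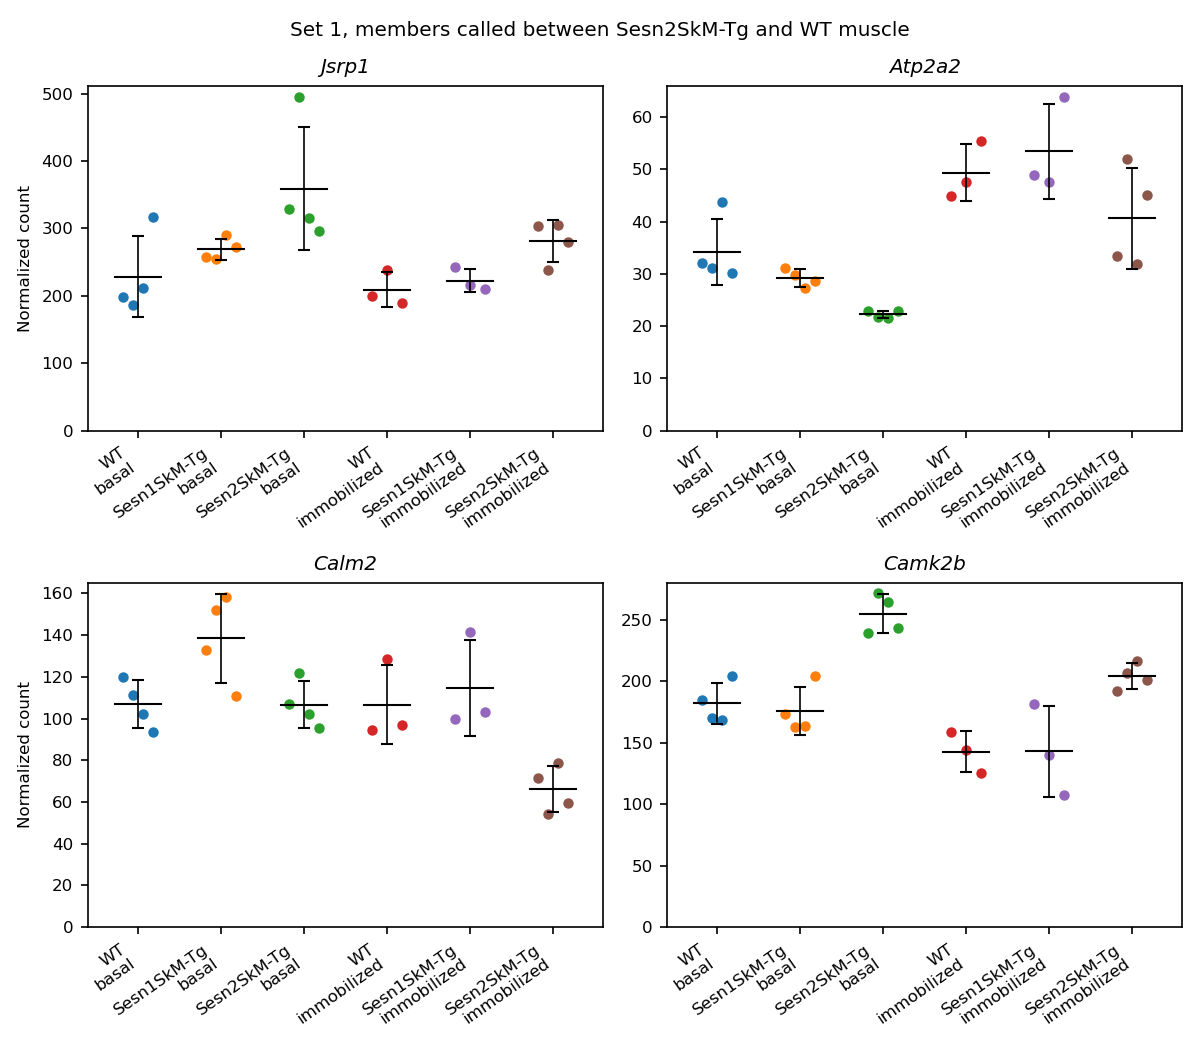
Normalized counts of Jsrp1, Atp2a2, Calm2 and Camk2b in each library of the 6 groups of set 1 (points; lines, group means; bars, SD; n = 3 or 4). Sesn2SkM-Tg values lay below the WT ones for basal Atp2a2 and immobilized Calm2 and above them for Camk2b in both states, while basal Jsrp1 overlapped in WT replicate 4.

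Beyond the module, 79 other calcium genes were listed by function (other channel subunits, pumps, exchangers, store chaperones, calcineurin and its targets), and 68 of them are in the table. After denervation 28 fell and 14 rose of 66 tested (27.7% and 27.8% of all genes; median -0.39). After immobilization of WT muscle 13 fell and 11 rose of 66 in set 2 (17.7% and 16.2% of all genes) and 13 fell and 10 rose of 68 in set 1 (14.5% and 14.9%), and in set 2 the shares of the list were near those of all genes. By a rule of size, 10 that were called after denervation with a log2 fold change of 1 or more in either direction are named, 7 lower and 3 higher. The lower ones were Slc8a3, a sodium-calcium exchanger (-1.93 ± 0.24, adjusted p = 6.43e-07), Rcan2, a brake of calcineurin (-1.91 ± 0.15, adjusted p = 1.09e-09), Myoz1, a calcineurin-binding protein of the fast-fiber Z-disc (-1.90 ± 0.15, adjusted p = 1.29e-09), Homer1, a scaffold (-1.50 ± 0.14, adjusted p = 1.47e-08), Itpr1, an inositol trisphosphate receptor (-1.37 ± 0.10, adjusted p = 2.75e-10), Atp2a3, another SERCA (-1.04 ± 0.17, adjusted p = 2.95e-05), and Cacng7, a gamma subunit (-1.01 ± 0.16, adjusted p = 2.26e-05). Higher were Canx (1.45 ± 0.10, adjusted p = 7.96e-11) and Calr (1.05 ± 0.09, adjusted p = 3.46e-09), the calcium-binding chaperones calnexin and calreticulin, and Dysf, dysferlin, which repairs membranes (1.32 ± 0.13, adjusted p = 2.8e-08). Of these, Slc8a3, Rcan2 and Myoz1 also fell in all 5 immobilization comparisons (from -2.16 to -1.29, -1.26 to -0.76 and -1.18 to -0.60), and Calr rose in all 5 (0.50 to 0.69). Canx rose in 4, and Dysf in 4, but Atp2a3 was called in 1 of the 5, where it was higher (Sesn2SkM-Tg, 0.87 ± 0.20, adjusted p = 0.00283).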

How the data were processed

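Per the methods and the submitters' processing notes, reads were trimmed with cutadapt 1.7.1, mapped to the GRCm38 mouse transcriptome and quantified with RSEM 1.2.20, and the authors normalized the counts with limma. They deposited 1 table of 13809 genes and 42 libraries whose values are a signal (normalized counts, linear scale); the filter on genes and the way the sets were combined are not given in the sources used here, so levels were compared within a set only. Library sums ran from 722430 to 1276769. Raw depth is unknown.

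From these values, log2(value + 1) was fitted per set with limma 3.58.1 (R 4.3.3; lmFit, eBayes with trend, 1 coefficient per group), after dropping genes that stayed below 1 in all libraries of the set, with Benjamini-Hochberg adjustment over all genes tested. The procedure was tested on simulated data with independent noise and changes planted between immobilized and basal WT muscle. Of 100 changes of 1 on the log2 scale, 71 were recovered in set 1 and 88 in set 2. Of 100 changes of 2, 98 and 99 were recovered. False calls were 9 of 13220 unchanged genes in set 1 and 12 of 13166 in set 2. The difference of the WT effects was fitted over both sets. Gene positions and exon lengths came from GENCODE M21 (35 of 35 members matched by ID), promoters from RefSeq; figures were drawn with matplotlib 3.10.9. Every member is named. Each library is listed for 26: a core of 11 (Ryr1, Cacna1s, Atp2a1, Atp2a2, Sln, Pln, Casq1, Casq2, Pvalb, Rrad, Stac3), members called after denervation by 1 or more on the log2 scale, members called in all 5 immobilization comparisons, and members called between genotypes or in a difference of effects. The members and lists were chosen with earlier results of these data known. Alternatives changed the pseudocount, filter, scaling, prior, fold threshold, replicate block and libraries fitted. Leaving out both libraries low in long transcripts was chosen after seeing the data.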

Additional observations from a re-analysis of the deposited data

Results flagged for a closer look

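In groups of 4 libraries, 1 library stood far from the others (a gap to its neighbour, as a share of the group's range, above Dixon's 95% critical value) in 23 of the 234 groups of values tested, 9.83%. Chance gives about 1 in 20 for independent, normally distributed values. The groups tested here share libraries across genes and the values were not logged, so these shares are not directly comparable.

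Among the voltage sensor genes, the library farthest out was Sesn1KO basal replicate 3 for Cacna1s (987 against 1119 to 1145) and Cacna2d1 (378 against 502 to 514), WT basal replicate 4 of set 1 for Cacnb1 (196 against 133 to 139.9) and Cacna2d1 (179 against 551 to 626), Sesn1KO basal replicate 4 (143 against 164 to 168) and immobilized replicate 1 (228 against 302 to 312) for Cacng1, and WT basal replicate 4 of set 2 for Cacng6 (143 against 113 to 116). Stac3 had 4 such libraries: Sesn1KO immobilized replicate 3 (188 against 118 to 120.4), Sesn1SkM-Tg basal replicate 3 (262 against 210.0 to 218), Sesn2SkM-Tg immobilized replicate 2 (92.97 against 118 to 123) and WT basal replicate 4 of set 2 (291 against 185 to 196). Rrad had 2, Sesn2SkM-Tg basal replicate 4 (53.4 against 0.463 to 4.21) and immobilized replicate 2 (252 against 10.3 to 35.4).

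Among the other members, Calm2 was low in Sesn1KO basal replicate 4 (125 against 139 to 142). Jsrp1 was high in Sesn2SkM-Tg basal replicate 2 (495 against 296 to 328), a library low in long transcripts, and low in WT immobilized replicate 2 of set 2 (240.1 against 259 to 260.1). Srl was high in Sesn1KO immobilized replicate 3 (1831 against 1199 to 1295), Atp2a2 in WT basal replicate 3 of set 1 (43.7 against 30.1 to 32.1), and Sln in Sesn1KO basal replicate 4 (2.56 against 0.698 to 0.962) and WT denervated replicate 1 (1.96 against 1.14 to 1.16). Pvalb (9279 against 7646 to 7907) and Camk2a (499.5 against 432 to 439) were high in Sesn1SkM-Tg basal replicate 3, and Stim1 in WT basal replicate 4 of set 1 (259.9 against 214 to 216), the other library low in long transcripts.

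The effect of WT immobilization differed between the sets, by the test of the difference itself, for Calm2 (set 2 minus set 1, -1.03 on the log2 scale), Pln (-1.38) and Cacng6 (0.82).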

How the results depend on the processing

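Of 169 member calls, 119 held under every alternative and 137 with each library left out in turn. Rescaling libraries to the same total changed most: of 210 gene results, 23 lost their call and 16 gained one with the sign kept. A further 6 changed sign while called in either fit, and these lost or gained calls are not in the 23 and 16. Quantile normalization followed (23, 5 and 3), and the cause was not tested. Leaving out 1 library gave 27 to 28 called members after denervation, 24 to 26 between denervation and immobilization, 18 to 20 after immobilization of WT in set 2, 19 to 24 in Sesn1KO, 17 to 22 in WT of set 1, 17 to 22 in Sesn1SkM-Tg and 19 to 22 in Sesn2SkM-Tg muscle. Of comparisons between genotypes, Sesn2SkM-Tg against WT gave 0 to 5 basal (5 without WT basal replicate 4 of set 1) and 0 to 1 immobilized, Sesn1KO against WT immobilized 0 to 1 (1 without Sesn1KO immobilized replicate 4), and the difference between the sets 2 to 5 (5 without WT immobilized replicate 1 of set 1). The remaining genotype comparisons and differences of effects gave 0 to 0. A lone library or a group of 2 was assumed to vary like the other groups.

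Among the 2 members called between immobilized Sesn2SkM-Tg and WT muscle, Camk2b lost its call with a pseudocount of 0.1 and with quantile normalization. Camk2b also lost it without a trend in the prior and with the replicate block. Calm2 lost its call with only the compared groups. With libraries rescaled to the same total, 4 members were called. Of the 2 called at rest, 0 were left with the replicate block and 0 with only the compared groups. The Atp2a2 call at rest was also lost with quantile normalization and with equal totals. Without the 2 libraries low in long transcripts, 3 were called at rest. Between the sets, 5 in place of 3 were called with only the compared groups fitted. The replicate block rests on shared numbers only: over 91 pairs of same-numbered libraries the correlation of deviations ran from -0.452 to 0.534 (24 over 0.1), so the numbers were not taken to pair animals, and with the replicate block 9 gene results lost and 1 gained a call.

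Among results called in the main or the alternative fit, the sign changed in 9 cases. Sign changes of results called in neither fit were not counted. With equal totals, log2 fold changes after denervation became 0.40 for Mcu, 0.058 for Calm3, 0.14 for Jsrp1 and 0.34 for Camk2b, and against immobilization 0.28 for Bin1 and 0.33 for Stim1. With quantile normalization those against immobilization became 0.58 for Pvalb, 0.43 for Bin1 and 0.12 for Tmem38a. Library sums differed between treatments, and the depth behind them is unknown.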
